A study of Mus musculus with 12 samples.

Results

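The genes described here are 45 mouse genes of integrin adhesion, podosomes and the actin ring, taken as a named list and found in the gene tables of 12 RNA-seq libraries, which hold 41388 genes. The list has 14 integrin chains (5 beta and 9 alpha) and 31 genes of the machinery that links integrins to actin. Each of the 45 symbols matched 1 Ensembl identifier, and all 45 passed the filter on low counts, as did 13030 genes in all. Expression was measured in cultured bone marrow cells of C57BL/6 mice in 4 groups of 3 libraries. Bone marrow cells were grown for 5 days and, after replating, for 2 more days in 2% M-CSF, the growth factor of macrophages, either alone (labelled bone marrow macrophages, BMM) or with RANKL at 50 ng/ml, the osteoclast differentiation cytokine (labelled osteoclasts, OC). One genotype carried floxed Asxl2, a chromatin regulator gene (flox), and the other was LysM Cre positive (KO). LysM Cre expresses the recombinase from the lysozyme locus, which is active in myeloid cells. The groups are called flox BMM, KO BMM, flox OC and KO OC. The labels give neither the ages or number of the mice nor say if the libraries within a group are different animals or cultures. The p-values therefore set the group differences against the spread between these libraries, and that spread may be technical.

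Integrins are pairs of an alpha and a beta chain that span the cell membrane and bind the matrix or other cells. Talin and kindlin bind the beta chain inside the cell and switch the pair to its binding state, and vinculin, paxillin and zyxin connect it to actin. In osteoclasts the adhesions are podosomes, small columns of branched actin built by WASP and the Arp2/3 complex, and these merge into the actin ring that seals the cell to bone. The integrin made of the Itgav and Itgb3 chains, acting through the kinases Ptk2b (PYK2) and Src and the adaptor Cbl, is the one best known for this ring.

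Asxl2 itself was the check of the genotype labels. It lay at 89.7 to 95.5 CPM (the read count relative to the library size after TMM scaling) in flox BMM, 14.9 to 15.4 CPM in KO BMM, 71.0 to 75.6 CPM in flox OC and 12.7 to 15.1 CPM in KO OC. Libraries held 18489873 to 21667237 counts. In 1 library 3 counts, the 95% upper limit for 0 reads, thus came to 0.138 to 0.162 CPM before TMM scaling. RANKL raised the osteoclast genes Acp5 (28.9 to 132 CPM in flox, 20.3 to 40.8 CPM in KO) and Ctsk (30.4 to 83.4 CPM and 36.0 to 66.0 CPM), and the sum of 10 osteoclast markers was 229 to 240, 204 to 208, 743 to 765 and 379 to 396 CPM in flox BMM, KO BMM, flox OC and KO OC. Calcr, the calcitonin receptor of mature osteoclasts, had no count in 3 groups and was near 0 in flox OC. The 10 macrophage markers summed to 32760 to 33590 CPM in flox BMM and 29070 to 29890 CPM in KO BMM. The sum was lower but still high with RANKL, between 15270 and 15700 CPM in flox OC and between 16580 and 16760 CPM in KO OC. In flox cells all 10 fell with RANKL (adjusted p under 0.05 by edgeR), 7 past 2-fold, against 37.8% and 10.5% of all genes. Which cells held these transcripts was not tested. Lyz2, the lysozyme gene at the LysM Cre locus, is among the 10, so the genotypes differ there by design. In bulk RNA, fewer cells of a type and less RNA per cell cannot be told apart.

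The promoters of 4 chains whose levels the results below turn on are printed to show the sequence that lies before their start sites: Itga5 and Itgb7, which rose with RANKL, Itgb5, which fell with it, and Itgav, the abundant chain with the largest genotype fall. Each is the 250 bases upstream of the RefSeq start on GRCm38.p6, 5′ to 3′ on the gene's strand. Capitals mark matches, on either strand, to 4 motifs: AP-1 (TGANTCA), the NFAT core (GGAAA), PU.1 (AGGAAGT) and an E-box (CACGTG). NFATc1 and PU.1 are transcription factors of osteoclast and myeloid genes.
Itga5, chr15:103366792-103367041, minus strand: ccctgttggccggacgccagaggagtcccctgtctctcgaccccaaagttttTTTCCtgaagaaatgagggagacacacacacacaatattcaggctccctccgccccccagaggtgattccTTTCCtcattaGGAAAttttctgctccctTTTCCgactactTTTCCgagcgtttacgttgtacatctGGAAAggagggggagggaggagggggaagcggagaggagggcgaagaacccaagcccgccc
Itgav, chr2:83724147-83724396, plus strand: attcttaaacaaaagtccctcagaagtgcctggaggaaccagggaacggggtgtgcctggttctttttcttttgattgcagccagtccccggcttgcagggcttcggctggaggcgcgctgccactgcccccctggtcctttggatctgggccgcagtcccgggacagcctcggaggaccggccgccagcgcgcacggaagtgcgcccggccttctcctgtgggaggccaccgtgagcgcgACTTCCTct
Itgb5, chr16:33829415-33829664, plus strand: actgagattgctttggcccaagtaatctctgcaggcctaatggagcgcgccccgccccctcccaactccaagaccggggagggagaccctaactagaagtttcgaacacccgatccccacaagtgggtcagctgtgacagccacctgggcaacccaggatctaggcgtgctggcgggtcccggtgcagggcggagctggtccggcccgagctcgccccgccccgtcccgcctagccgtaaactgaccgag
Itgb7, chr15:102231936-102232185, minus strand: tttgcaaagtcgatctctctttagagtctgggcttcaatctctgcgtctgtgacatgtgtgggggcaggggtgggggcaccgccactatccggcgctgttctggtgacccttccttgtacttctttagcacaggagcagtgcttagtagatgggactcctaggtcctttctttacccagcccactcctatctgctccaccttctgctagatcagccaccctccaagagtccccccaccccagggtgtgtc
The Itga5 promoter held 6 NFAT cores, a count reached by 21 of 32851 promoters (0.0639%), and it was singled out after that count was seen. The Itgav promoter held 1 PU.1 match. Among 39 promoters of 32 members, 16 held an NFAT core (41.0%, against 55.6% of all promoters), 5 held PU.1 (12.8% against 7.69%), 3 held AP-1 (7.69% against 6.75%) and none held the E-box (against 6.02%). The PU.1 matches were in Gsn, Itgav, Vav1, Was and Wipf1. G and C made up a median of 62.4% of the bases in member promoters and 52.4% in all promoters. The shares with a motif were not adjusted for this. A match is a description of the letters and not a site of binding.

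Compared per kilobase of exon, the beta chains were led by Itgb2, the partner of the leukocyte alpha chains, and Itgb1, the partner of most matrix-binding alpha chains. Itgb2 made up 50.4% of the summed beta chain level in flox BMM and 61.1% in flox OC, and Itgb1 made up 26.1% and 28.8%. Itgb5, an alternative partner of Itgav that binds vitronectin, came next with 22.9% in flox BMM but only 5.69% in flox OC. Itgb3 was the scarcest of the 5 in every group, at 0.0856% in flox BMM, 0.0364% in KO BMM, 0.0469% in flox OC and 0.0353% in KO OC. Its mean level per kilobase in flox OC was 0.00824 of that of Itgb5.

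Among the alpha chains, Itgam (CD11b) had the largest share in the BMM groups, 38.5% in flox and 42.6% in KO. In the OC groups Itga5, the fibronectin receptor chain, had the largest share, 35.5% in flox and 32.1% in KO, against 13.6% and 10.1% in BMM. Itgav made up 6.30% of the alpha chain level in flox BMM, 4.004% in KO BMM, 9.05% in flox OC and 5.56% in KO OC. Itgal (CD11a) went the other way by genotype, with 15.3% in flox BMM, 21.2% in KO BMM, 7.16% in flox OC and 11.5% in KO OC.

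**Figure D1:**
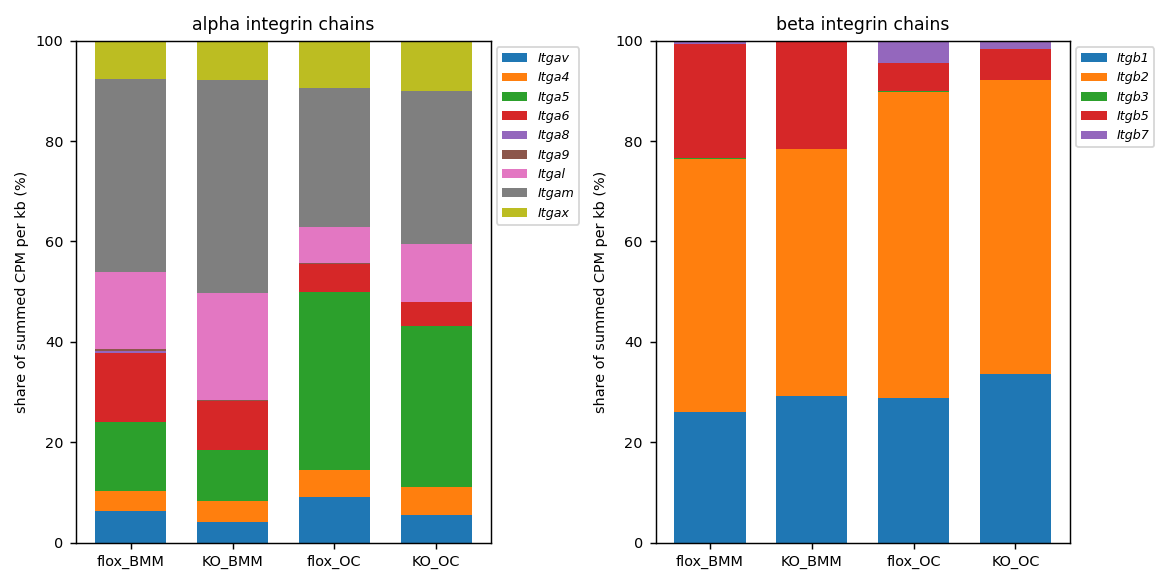
Share of each chain in the summed level per kilobase of exon (vertical axis, percent of TMM-scaled CPM per kb, group means of 3 libraries) for the 9 alpha chains and the 5 beta chains in the 4 groups. Itgb5 shrinks from 22.9% to 5.69% of the beta chains between flox BMM and flox OC, and Itga5 grows from 13.6% to 35.5% of the alpha chains.

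With M-CSF alone, nearly all integrin chains were lower in KO than in flox libraries, and a few actin and adhesion genes, led by Tln2 and Cttn, were higher. Of the 45 members, 9 were called higher and 22 lower (edgeR quasi-likelihood test, Benjamini-Hochberg adjusted p under 0.05 over all genes tested), against 39.9% of all genes called in either direction, 19.3% higher and 20.6% lower. Past 2-fold as well were 2 members higher and 7 lower, against 4.21% of all genes in either direction, 0.89% higher and 3.32% lower. Tested against a 1.5-fold threshold, 13 members were called, against 4.46% of all genes. The 2 groups did not overlap for 32 members, against 46.6% of all genes. The median log2 fold change of the members was -0.07, beside 0.0008 over all genes. With library size alone as the scaling, the split was 12 higher and 21 lower.

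Among the beta chains in BMM, 4 of 5 fell. Itgb3 lay at 4.03, 3.19 and 4.77 CPM in the flox libraries and at 1.20, 1.78 and 1.65 CPM in the KO libraries. Every KO library was below every flox library, with a log2 fold change of -1.35 (SE 0.19, adjusted p = 4.24e-08 by edgeR), on 218 and 93 reads per group. Itgb7, which pairs with Itga4 in a homing receptor of leukocytes, was at 12.7, 11.8 and 13.0 CPM in flox and 5.92, 5.15 and 6.25 CPM in KO, again without overlap (log2 fold change -1.11, edgeR adjusted p = 7.27e-14). The abundant chains moved little: Itgb2 was at 1274, 1229 and 1159 CPM in flox and 1076, 1071 and 1090 CPM in KO (log2 fold change -0.18, edgeR adjusted p = 4.46e-07), with the KO values just below the flox range. Itgb5 fell by 0.25 on the log2 scale, and Itgb1 did not pass the test (0.02, edgeR adjusted p = 0.619).

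Of the 9 alpha chains, 8 fell in KO BMM and Itgal rose. Itgav was at 392, 352 and 333 CPM in flox and at 177, 182 and 182 CPM in KO. The groups did not overlap, and the log2 fold change was -0.99 (SE 0.05, adjusted p = 2.27e-12 by edgeR). The largest falls were in scarce chains that pair with Itgb1. Itga8, a receptor chain for nephronectin, was at 18.4, 14.6 and 13.3 CPM in flox and 3.69, 3.27 and 3.20 CPM in KO (log2 fold change -2.19, SE 0.11). Itga9, a chain that binds tenascin and osteopontin, was at 21.0, 23.1 and 21.1 CPM in flox and 6.35, 5.92 and 6.06 CPM in KO (log2 fold change -1.83, SE 0.08, adjusted p = 1.32e-23 by edgeR). In both genes the groups were far apart compared with the spread within them. Itga6, a laminin receptor chain (-0.84), and Itga5 (-0.77) fell at higher levels, while Itga4 (-0.23), Itgax (-0.31) and Itgam (-0.19) fell by less, as log2 fold changes. Itgal rose by a log2 fold change of 0.13.

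Among the adaptors, Tln2, the second talin gene, had the largest rise of all members in BMM. It was at 6.63, 7.21 and 6.90 CPM in flox and 21.0, 21.6 and 21.7 CPM in KO (log2 fold change 1.63, SE 0.08, adjusted p = 2.55e-22 by edgeR). Tln1 was more abundant and its groups overlapped, at 1296, 1269 and 1159 CPM in flox and 1107, 1252 and 1190 CPM in KO (log2 fold change -0.07, edgeR adjusted p = 0.304). Without the second KO BMM library its fall passed the test (-0.11, edgeR adjusted p = 0.0383). Per kilobase, Tln2 was 0.00449 ± 0.000341 of Tln1 in flox BMM and 0.0146 ± 0.000711 in KO BMM (SD, n = 3), so Tln1 remained the main talin. Bcar1 (p130Cas), a docking protein for adhesion kinases, was at 1.76, 1.91 and 1.91 CPM in flox and 0.597, 0.481 and 0.630 CPM in KO, a fall by 1.70 on the log2 scale (SE 0.26, adjusted p = 3.02e-07 by edgeR) that rests on 102 and 34 reads. Zyx rose by a log2 fold change of 0.12 and Vcl fell by 0.37 on the log2 scale. Fermt3, the kindlin of blood cells (0.00), and Pxn (0.06) did not pass the test. Pxn was called higher without the first flox BMM library (0.07, edgeR adjusted p = 0.0461) or the second (0.08, edgeR adjusted p = 0.0348). It was also called higher with library size alone (0.10, edgeR adjusted p = 0.0027). Counting ignored strand, and 39.9% of the exonic bases of Vcl lie in exons of Ap3m1, so the Vcl values are uncertain. No other member shared over 10% of its exonic bases.

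The 2 focal adhesion kinases changed in opposite directions in BMM. Ptk2 (FAK) was at 50.0, 44.2 and 42.8 CPM in flox and 62.3, 58.5 and 63.1 CPM in KO (log2 fold change 0.42, SE 0.05, adjusted p = 1.19e-10 by edgeR). Ptk2b was at 406, 398 and 379.8 CPM in flox and 360.2, 374 and 354 CPM in KO (log2 fold change -0.12, SE 0.03, adjusted p = 0.000482 by edgeR). Neither pair of groups overlapped, and Ptk2 rose from 0.171 ± 0.00963 to 0.251 ± 0.0167 of Ptk2b per kilobase (SD, n = 3). The ubiquitin ligases Cbl and Cblb did not pass the test.

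Among the branched actin genes, Cttn, which encodes cortactin, a stabiliser of Arp2/3 branches, was the only one that rose in BMM. It was at 6.41, 6.39 and 6.00 CPM in flox and at 17.1, 18.2 and 17.2 CPM in KO, well apart (log2 fold change 1.48, SE 0.09, adjusted p = 5.51e-19 by edgeR). Was, which encodes WASP, was at 143, 141 and 139 CPM in flox and 153, 147 and 143 CPM in KO, and the groups met at the edge (log2 fold change 0.07, edgeR adjusted p = 0.0999). Its rise passed the test without the first flox BMM library (0.08, edgeR adjusted p = 0.0382) and with library size alone (0.10, edgeR adjusted p = 0.00752). Wipf1, the partner of WASP, fell by 0.21 on the log2 scale, and Wasl, Arpc2, Actr2 and Actr3 did not pass. Arpc2 was called lower without the third flox BMM library (-0.09, edgeR adjusted p = 0.00701).

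Of the severing and crosslinking genes, Gsn (gelsolin), Actn1 and Fscn1 fell and Actn4 rose. Fscn1, the bundler fascin, was at 7.49, 9.68 and 8.47 CPM in flox and 2.33, 3.37 and 2.33 CPM in KO (log2 fold change -1.67, SE 0.15, adjusted p = 9.99e-12 by edgeR). Gsn was a highly expressed member and fell by 0.56 on the log2 scale. Both unconventional myosins fell: Myo1d was at 9.24, 7.57 and 7.74 CPM in flox and 3.85, 3.75 and 3.49 CPM in KO (log2 fold change -1.14, SE 0.12, adjusted p = 1.15e-10 by edgeR), and Myo10, a filopodial motor that carries integrins, fell by 0.92 on the log2 scale. For Fscn1 and Myo1d the highest KO library stayed below the lowest flox library.

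Rac2, the Rac of blood cells, was at 302, 313 and 299.6 CPM in flox and 416, 406 and 409 CPM in KO (log2 fold change 0.43, SE 0.03, adjusted p = 6.69e-18 by edgeR). Rac1 rose by a log2 fold change of 0.14, and Rhoa, Cdc42 and the exchange factor Vav1 did not pass. Rhoa was called higher without the third flox BMM library (0.08, edgeR adjusted p = 0.0157) and with library size alone (0.10, edgeR adjusted p = 0.00275). Of the Tks scaffolds, which organise podosomes around matrix degradation, Sh3pxd2b was at 416, 431 and 404 CPM in flox and 458, 475 and 479.6 CPM in KO (log2 fold change 0.17, edgeR adjusted p = 1.5e-06). Actn4 was at 599.5, 580.4 and 539 CPM in flox and 628, 649 and 643 CPM in KO (log2 fold change 0.16, edgeR adjusted p = 1.13e-05). All 3 of these genes were higher in every KO library. Sh3pxd2a fell by 0.15 on the log2 scale, and its groups overlapped (edgeR adjusted p = 0.021). That call was lost without the first flox BMM library (edgeR adjusted p = 0.0639), without the second (edgeR adjusted p = 0.221) and without the first KO BMM library (edgeR adjusted p = 0.0806), as well as with library size alone (edgeR adjusted p = 0.0805) and with DESeq2 (adjusted p = 0.0766).

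Several falls in scarce members coincided with lower markers of other cells in KO BMM. The summed level of 14 stromal cell markers was 279.5 to 302 CPM in flox BMM and 93.8 to 104 CPM in KO BMM, with Lum at 0 in both. The 7 megakaryocyte markers summed to 343 to 408 CPM and 48.0 to 52.1 CPM, nearly all of it Pf4, with Gp6 at 0 in both. The 8 neutrophil markers summed to 78.0 to 82.2 CPM and 25.6 to 28.2 CPM, with Ly6g at 0 in both. T and NK cell markers summed to 97.4 to 99.8 CPM in flox BMM and 57.3 to 61.9 CPM in KO BMM. For B cell markers the sums were 25.7 to 27.6 CPM and 16.75 to 18.5 CPM, and for endothelial markers 35.1 to 39.75 CPM and 24.1 to 26.1 CPM. Dendritic cell markers were not lower, at 1.19 to 2.30 CPM and 2.08 to 2.36 CPM. The macrophage sum, which includes Lyz2 at the LysM Cre locus, was 32760 to 33590 CPM and 29070 to 29890 CPM. The part of these cells in the falls of Itga8, Itga9, Itgb3, Itgb7, Bcar1, Fscn1 and Myo1d was not tested.

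**Figure D2:**
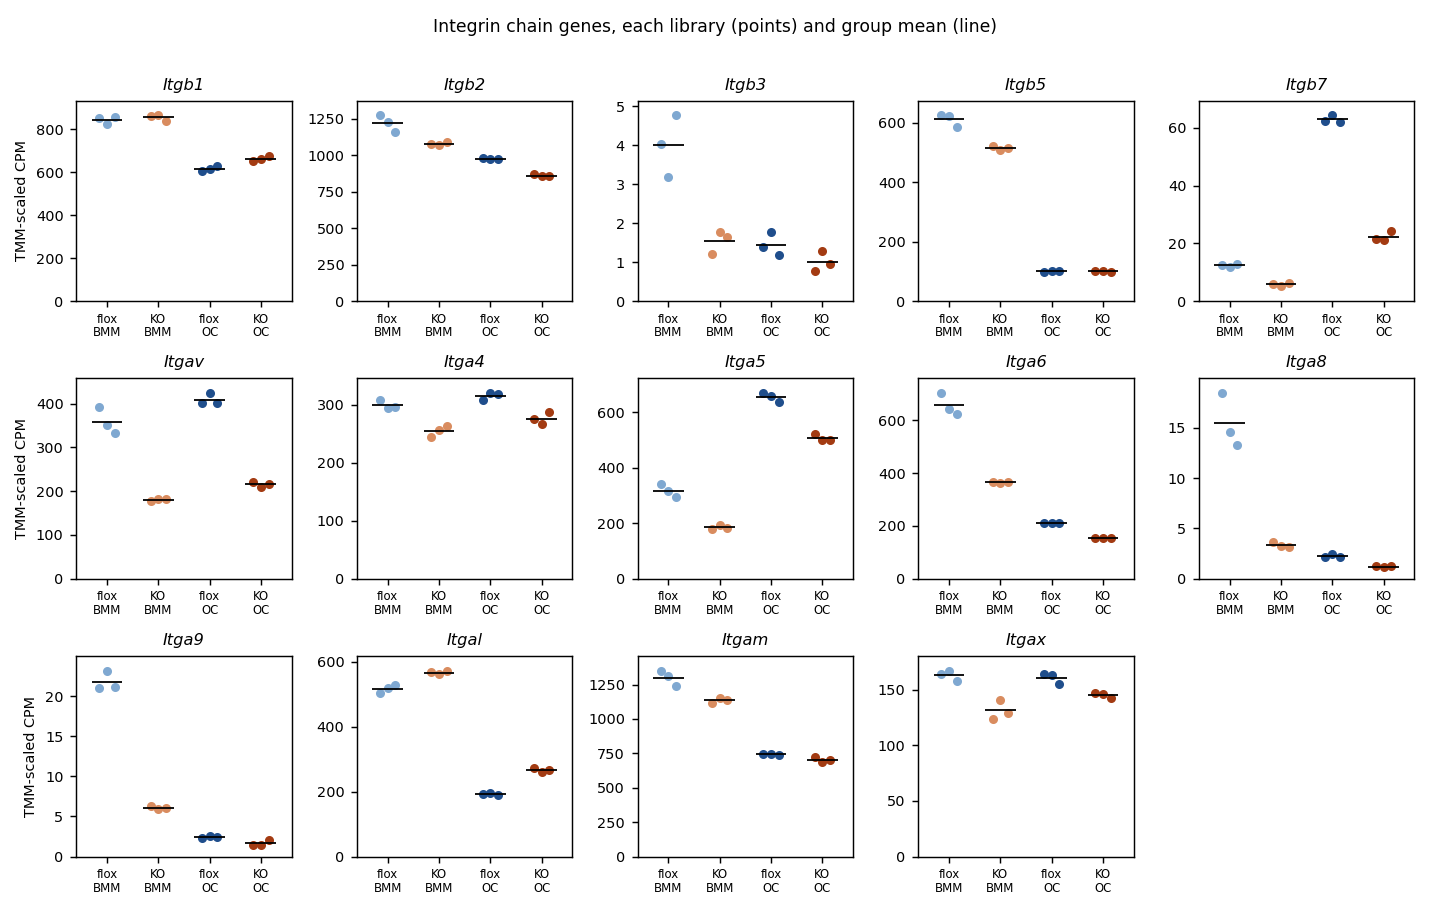
TMM-scaled CPM (vertical axis, each panel from 0 with its own scale) of the 14 integrin chains in every library (points, 3 per group) with the group mean (line). Itgav, Itga5 and Itgb7 are lower in KO than in flox libraries in both cultures, and Itgb3 stays under 5 CPM in all libraries.

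With RANKL, 10 of the 14 integrin chains were lower in KO than in flox libraries, Itgb7 by the most, and Itgal and Itgb1 were higher. Of the 31 other members, 14 were higher in KO, led by Cttn, and 9 were lower. Among the 45 members, 16 were called higher and 19 lower in KO OC than in flox OC, against 41.3% of all genes called in either direction, 21.4% higher and 19.9% lower. Past 2-fold were 1 member higher (Cttn) and 2 lower (Itgb7 and Fscn1), against 4.22% of all genes in either direction, 1.5% higher and 2.72% lower. Tested against a 1.5-fold threshold, 5 members were called, against 3.93% of all genes. The groups did not overlap for 36 members, against 51.3% of all genes. The median log2 fold change of the members was -0.04, beside 0.006 over all genes. BMM and OC comparisons share no library: 18 members were lower in both (40.0%, against 10.8% of all genes), 9 were higher in both (20% against 11%) and 1, Ptk2b, was called in opposite directions.

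Itgb7 had the largest fall in OC. It was at 62.4, 64.3 and 62.2 CPM in flox OC and 21.6, 21.1 and 24.4 CPM in KO OC (log2 fold change -1.49, SE 0.05, adjusted p = 1.6e-28 by edgeR). Itgav was at 402, 424 and 402 CPM in flox and 222, 209 and 216 CPM in KO, with a fall close to that in BMM (log2 fold change -0.92, SE 0.05, adjusted p = 4.99e-12 by edgeR). In both genes the groups were far apart. Itgb3, its partner chain in the osteoclast integrin, was at 1.398, 1.78 and 1.17 CPM in flox and 0.768, 1.29 and 0.953 CPM in KO, the groups overlapped, and the log2 fold change of -0.52 (SE 0.25) did not pass the test (edgeR adjusted p = 0.0964). It passed without the second KO OC library (-0.74, edgeR adjusted p = 0.0456). Itgb2 was at 980.0, 975 and 971 CPM in flox and 869, 855 and 857 CPM in KO, without overlap (log2 fold change -0.18, edgeR adjusted p = 3.3e-07). Itgb5 did not pass the test (-0.01), and Itgb1 rose by a log2 fold change of 0.11.

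The alpha chains that fell most in OC were, after Itgav, the scarce Itga8 and Itga9. Itga8 was at 2.21, 2.42 and 2.14 CPM in flox and 1.23, 1.14 and 1.254 CPM in KO (log2 fold change -0.90, SE 0.22, adjusted p = 0.000692 by edgeR). Itga9 was at 2.35, 2.57 and 2.48 CPM in flox and 1.49, 1.48 and 2.06 CPM in KO (log2 fold change -0.55, SE 0.18, adjusted p = 0.0103 by edgeR). The groups did not overlap in either gene, but the call for Itga9 was lost without the first KO OC library (-0.48, edgeR adjusted p = 0.0553) or without the second (-0.47, edgeR adjusted p = 0.0592). Itga6 (-0.44), Itga5 (-0.37), Itga4 (-0.19), Itgax (-0.14) and Itgam (-0.08) also fell, given as log2 fold changes. The call for Itgam was lost without the first flox OC library (edgeR adjusted p = 0.0506), the second flox OC library (0.0565), the second KO OC library (0.141) or the third (0.064). Itgal was the alpha chain that rose, at 192, 195 and 189 CPM in flox and 273, 259 and 265 CPM in KO (log2 fold change 0.47, SE 0.03, adjusted p = 1.45e-18 by edgeR).

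Cttn and Tln2 again had the largest rises. Cttn was at 8.93, 9.19 and 11.6 CPM in flox OC and 24.5, 25.2 and 25.2 CPM in KO OC (log2 fold change 1.33, SE 0.07, adjusted p = 1.34e-20 by edgeR). Tln2 was at 4.29, 4.35 and 3.65 CPM in flox and 7.33, 7.12 and 8.13 CPM in KO (log2 fold change 0.88, SE 0.11, adjusted p = 3.56e-09 by edgeR). All KO libraries were above all flox libraries for both. Tln1 did not pass the test (-0.04, edgeR adjusted p = 0.53), at 1104, 1097 and 1041 CPM in flox and 1070.0, 1011 and 1065 CPM in KO. Of the other adaptors, Zyx rose (log2 fold change 0.25) and Vcl fell (-0.30), while Fermt3, Pxn and Bcar1 did not pass. Pxn was called lower without the first flox BMM library (-0.06, edgeR adjusted p = 0.045) or the third (-0.06, edgeR adjusted p = 0.0425). It was also called lower with only the groups compared (-0.06, edgeR adjusted p = 0.0299).

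Both adhesion kinases and Cbl were higher in KO OC. Ptk2 was at 60.5, 63.0 and 59.3 CPM in flox and 95.8, 96.3 and 96.2 CPM in KO (log2 fold change 0.66, SE 0.04, adjusted p = 1.13e-18 by edgeR). Ptk2b was at 223, 226 and 225 CPM in flox and 255, 261 and 249.8 CPM in KO (log2 fold change 0.18, SE 0.03, adjusted p = 1.38e-06 by edgeR), so its genotype difference had the opposite sign from that in BMM. Cbl rose by a log2 fold change of 0.29, and Cblb did not pass.

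The podosome core genes were split in OC. Arpc2 (0.14) and Actr2 (0.11), subunits of the Arp2/3 complex, rose, and Actr3, another subunit, fell (-0.21), as log2 fold changes. Wipf1 fell by 0.14 on the log2 scale. Was did not pass (0.02, edgeR adjusted p = 0.583), at 135, 133 and 139 CPM in flox and 138, 138 and 137 CPM in KO, inside the flox range, and Wasl did not pass either. Fscn1 was at 9.20, 8.59 and 6.77 CPM in flox and 3.996, 3.17 and 2.91 CPM in KO (log2 fold change -1.29, SE 0.14, adjusted p = 1.11e-09 by edgeR). Myo1d was at 4.51, 5.83 and 5.46 CPM in flox and 3.89, 2.72 and 2.96 CPM in KO (log2 fold change -0.72, SE 0.14, adjusted p = 3.13e-05 by edgeR). Neither gene's groups overlapped. Gsn (-0.44), Actn1 (-0.19) and Myo10 (-0.50) fell as well, and Actn4 rose by a log2 fold change of 0.07, a call lost without the second flox BMM library, the second or the third flox OC library, or the first or second KO OC library (edgeR adjusted p = 0.0678, 0.102, 0.118, 0.108 and 0.0856). It was also lost with DESeq2 size factors (edgeR adjusted p = 0.0652) and with DESeq2 (adjusted p = 0.111).

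In KO OC, Rac2 was higher. It was at 159.7, 154 and 155 CPM in flox and 236, 246 and 248 CPM in KO (log2 fold change 0.64, SE 0.03, adjusted p = 2.19e-23 by edgeR). Rac1 (0.12), Rhoa (0.09) and Vav1 (0.10) rose by less, as log2 fold changes, and Cdc42 did not pass. Sh3pxd2b was at 237.5, 244 and 249 CPM in flox and 333, 323 and 333 CPM in KO (log2 fold change 0.44, SE 0.03, adjusted p = 1.71e-17 by edgeR), while Sh3pxd2a fell by 0.32 on the log2 scale. Rac2 and Sh3pxd2b were higher in every KO library. Beside these values, the stromal markers summed to 232 to 233 CPM in flox OC and 75.0 to 86.0 CPM in KO OC, the megakaryocyte markers to 134 to 140.5 CPM and 15.2 to 16.2 CPM, and the osteoclast markers to 743 to 765 CPM and 379 to 396 CPM. The neutrophil markers summed to 33.9 to 35.8 CPM in flox OC and 10.1 to 11.8 CPM in KO OC. Dendritic cell marker sums overlapped, at 2.29 to 3.75 CPM and 2.56 to 2.61 CPM. The part of these differences in the member values was not tested.

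**Figure D3:**
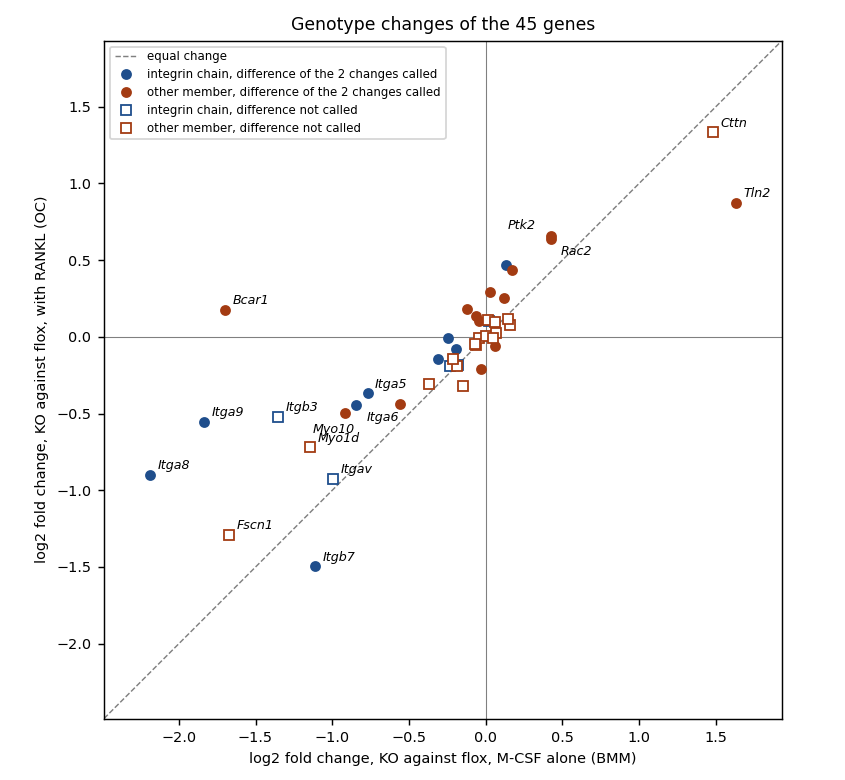
Log2 fold change of KO against flox for the 45 genes with M-CSF alone (horizontal axis) and with RANKL (vertical axis); filled circles are genes whose 2 changes differed by the test of the difference, open squares are the others, and the dashed line marks equal change. Itga8 and Itga9 lie above the line, with smaller falls in OC, and Bcar1 lies far from it, at -1.70 in BMM and 0.18 in OC.

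RANKL lowered most members in flox cells and raised a small group led by Itgb7, Bcar1 and Itga5. Of the 45 members, 10 were called higher and 30 lower in flox OC than in flox BMM, against 74.8% of all genes called in either direction, 37.0% higher and 37.8% lower. Past 2-fold were 3 higher and 7 lower, against 17.4% of all genes in either direction, 6.87% higher and 10.5% lower. The test against a 1.5-fold threshold called 19 members, against 25.7% of all genes. The groups did not overlap for 40 members, against 75.2% of all genes. The median log2 fold change of the members was -0.37, beside -0.0036 over all genes. With library size alone as the scaling, which raised the median of all genes by 0.17 on the log2 scale, the split of members was 14 higher and 27 lower.

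The chains that rose with RANKL in flox cells were Itgb7 and 3 alpha chains. From the library values above, Itgb7 went from 12.5 ± 0.572 to 63.0 ± 1.17 CPM (SD, n = 3 each; log2 fold change 2.34, SE 0.06, adjusted p = 1.56e-35 by edgeR). Itga5 was at 341, 315 and 294 CPM in flox BMM and 669, 659 and 636 CPM in flox OC (log2 fold change 1.05, SE 0.04, adjusted p = 2.71e-19 by edgeR). Both sets of OC libraries were well above the BMM libraries. Itgav rose less, from 359 ± 30.2 to 409 ± 12.8 CPM (log2 fold change 0.19, SE 0.04, adjusted p = 0.000751 by edgeR), without overlap. Itga4 rose by a log2 fold change of 0.07 with overlapping groups, a call that was lost in 4 of the 12 fits without 1 library, those without the second or the third flox BMM or flox OC library (edgeR adjusted p between 0.0643 and 0.126). It was also lost with no filter on low counts (edgeR adjusted p = 0.122) and with DESeq2 (adjusted p = 0.058).

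Itgb5 fell more than any other abundant chain. It was at 624, 624 and 584 CPM in flox BMM and 97.5, 101 and 102 CPM in flox OC (log2 fold change -2.61, SE 0.03, adjusted p = 1.62e-48 by edgeR). Itgb3 went from 3.996 ± 0.787 to 1.45 ± 0.307 CPM (log2 fold change -1.46, SE 0.19, adjusted p = 1.7e-09 by edgeR), so the beta chain best known from osteoclasts was lower in the RANKL libraries, without overlap. Itga9 (-3.14) and Itga8 (-2.77) had the largest falls and ended under 3 CPM. Itga6 was at 703, 644 and 624 CPM in flox BMM and 210.4, 210.6 and 212 CPM in flox OC (log2 fold change -1.64, SE 0.03, adjusted p = 2.91e-40 by edgeR). Itgal was at 502, 518 and 528 CPM and then at 192, 195 and 189 CPM (log2 fold change -1.42, SE 0.03, adjusted p = 1.29e-39 by edgeR). In these 2 genes every RANKL library was far below the libraries with M-CSF alone. Itgam (-0.80), Itgb1 (-0.46) and Itgb2 (-0.32) fell by less as log2 fold changes, and Itgax did not pass the test (-0.02). With library size alone Itgax was called higher (0.15). In the same flox libraries the megakaryocyte markers summed to 343 to 408 CPM with M-CSF alone and 134 to 140.5 CPM with RANKL, the neutrophil markers to 78.0 to 82.2 CPM and 33.9 to 35.8 CPM, and the stromal markers to 279.5 to 302 CPM and 232 to 233 CPM. Their part in the falls of Itgb3, Itga8 and Itga9 was not tested.

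Among the other members, Bcar1 rose from 1.76, 1.91 and 1.91 CPM to 5.05, 6.07 and 5.36 CPM (log2 fold change 1.56, SE 0.15, adjusted p = 4.16e-13 by edgeR). Myo10 was at 230.4, 217 and 203 CPM in flox BMM and 341, 356 and 333 CPM in flox OC (log2 fold change 0.66, SE 0.04, adjusted p = 5.74e-15 by edgeR). Both genes were higher in every OC library. Cttn (0.66), Ptk2 (0.42), Actn1 (0.40) and Actn4 (0.30) rose as well, as log2 fold changes. Rac2 (-0.96), Cdc42 (-0.37), Rac1 (-0.36) and Rhoa (-0.25) fell, as log2 fold changes, and so did both Tks scaffolds (Sh3pxd2a -0.81, Sh3pxd2b -0.78). Ptk2b fell by 0.81 on the log2 scale (SE 0.03, adjusted p = 4.36e-29 by edgeR), Zyx by 1.20, Tln2 by 0.76 and Arpc2 by 0.73. Cbl (-0.69), Cblb (-0.57), Wipf1 (-0.56), Vav1 (-0.65), Myo1d (-0.64) and Fermt3 (-0.42) also fell. The falls of Tln1 (-0.20), Actr2 (-0.17) and Vcl (-0.28) did not pass with library size alone, where the value for Actr2 was 0.002. Was did not pass the test (-0.06, edgeR adjusted p = 0.113) and was called higher with library size alone (0.11, edgeR adjusted p = 0.00124). Wasl, Actr3 and Fscn1 did not pass. Actr3 was called higher without the third flox BMM library (0.08, edgeR adjusted p = 0.0166) or the first flox OC library (0.07, edgeR adjusted p = 0.0373), and Wasl and Actr3 were called higher with library size alone (0.22 each).

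In KO cells RANKL again lowered most members and raised Bcar1, Itgb7 and Itga5 most. Of the 45 members, 11 were called higher and 31 lower in KO OC than in KO BMM, against 70.5% of all genes called in either direction, 35.5% higher and 35.0% lower. Past 2-fold were 4 higher (Bcar1, Itgb7, Itga5 and Myo10) and 7 lower, against 13.9% of all genes in either direction, 6.11% higher and 7.79% lower. The test against a 1.5-fold threshold called 14 members, against 20.1% of all genes. The groups did not overlap for 41 members, against 73.4% of all genes. The median log2 fold change was -0.33, beside 0.0017 over all genes, and the split with library size alone was 13 higher and 25 lower. The RANKL comparisons in flox and in KO cells share no library: 29 members were lower in both (64.4%, against 31.4% of all genes), 10 were higher in both (22.2% against 31.0%) and none was called in opposite directions.

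Bcar1 had the largest rise in KO cells, from 0.597, 0.481 and 0.630 CPM to 6.15, 5.59 and 6.87 CPM (log2 fold change 3.43, SE 0.19, adjusted p = 1.17e-21 by edgeR), on 34 and 370 reads. Itgb7 went from 5.77 ± 0.564 to 22.4 ± 1.76 CPM (SD, n = 3 each; log2 fold change 1.95, SE 0.08, adjusted p = 3.93e-26 by edgeR). Itga5 was at 181, 193 and 184 CPM in KO BMM and 521, 500.1 and 500.0 CPM in KO OC (log2 fold change 1.45, SE 0.04, adjusted p = 5.19e-22 by edgeR). All 3 genes were higher in every RANKL library. Myo10 (1.09), Ptk2 (0.65), Cttn (0.51), Actn1 (0.40), Itgav (0.26, edgeR adjusted p = 7.73e-05), Actn4 (0.22), Itgax (0.15) and Itga4 (0.12) rose by less, as log2 fold changes.

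The largest fall in KO cells was that of Itgb5, at 520.2, 506 and 516 CPM in KO BMM and 101, 102 and 96.7 CPM in KO OC (log2 fold change -2.37, SE 0.03, adjusted p = 1.53e-46 by edgeR). Tln2, the gene with the largest genotype rise in BMM, fell from 21.0, 21.6 and 21.7 CPM to 7.33, 7.12 and 8.13 CPM (log2 fold change -1.51, SE 0.08, adjusted p = 8.37e-23 by edgeR). Both genes were lower in every RANKL library. Itga9 (-1.86), Itga8 (-1.48), Itga6 (-1.24) and Itgal (-1.09) fell by more than 2-fold. Itgb3 fell by 0.62 on the log2 scale (SE 0.25, adjusted p = 0.0254 by edgeR), but the groups overlapped. That call was lost without the second or the third KO BMM library (edgeR adjusted p = 0.116 and 0.0724), without the first or the third KO OC library (0.127 and 0.0676), with library size alone (0.0813) and with DESeq2 (0.0516). Ptk2b fell by 0.51, Itgb2 by 0.33 and Tln1 by 0.17 on the log2 scale, and the fall of Tln1 did not pass with library size alone. From KO BMM to KO OC the megakaryocyte sum went from between 48.0 and 52.1 CPM to between 15.2 and 16.2 CPM, the neutrophil sum from between 25.6 and 28.2 CPM to between 10.1 and 11.8 CPM, and the stromal sum from between 93.8 and 104 CPM to between 75.0 and 86.0 CPM, and their part was again not tested.

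The other falls in KO cells ran from Zyx (-1.07) and Sh3pxd2a (-0.97) to Actr2 (-0.08), as log2 fold changes. Rac2 (-0.75), Vav1 (-0.51), Rac1 (-0.38), Cdc42 (-0.33) and Rhoa (-0.21) were among the genes that fell. The falls of Vcl (-0.21), Actr2 and Actr3 (-0.13) did not pass with library size alone, where the values for Actr2 (0.06) and Actr3 (0.01) turned positive. That of Vcl was also lost without the first KO OC library (-0.11, edgeR adjusted p = 0.185) and that of Actr2 without the second (-0.07, edgeR adjusted p = 0.0526). Was fell by 0.10 on the log2 scale (edgeR adjusted p = 0.00626), a call lost without the first KO BMM library (edgeR adjusted p = 0.0567) and a direction that turned with library size alone (0.04, edgeR adjusted p = 0.265). Wasl, Fscn1 and Myo1d did not pass. Fscn1 was called higher without the second KO BMM library (0.52, edgeR adjusted p = 0.0217) and Myo1d lower without the first KO OC library (-0.38, edgeR adjusted p = 0.0435). With library size alone, Fscn1 (0.45, edgeR adjusted p = 0.0281) and Wasl (0.14, edgeR adjusted p = 0.0216) were called higher.

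**Figure D4:**
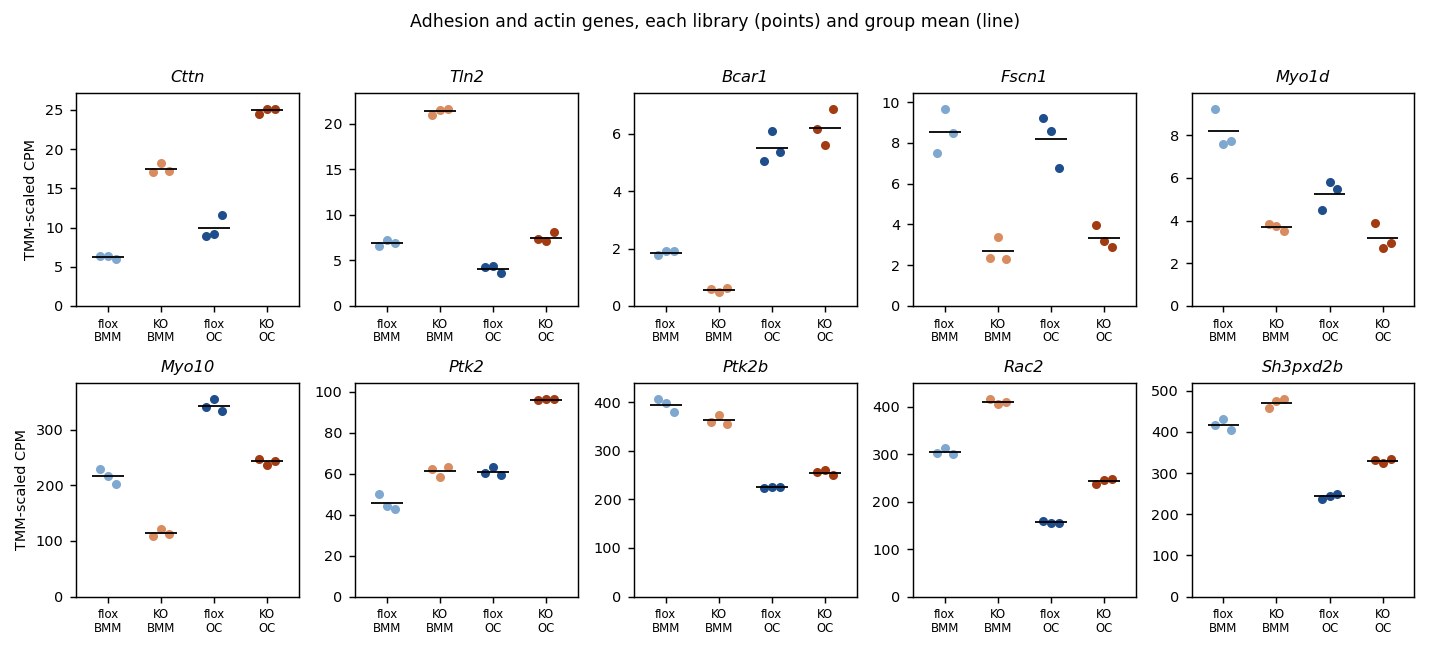
TMM-scaled CPM (vertical axis, each panel from 0 with its own scale) of 10 adhesion and actin genes in every library (points, 3 per group) with the group mean (line). Cttn, Tln2, Ptk2, Rac2 and Sh3pxd2b are higher in KO than in flox libraries in both cultures, and Fscn1, Myo1d and Myo10 are lower.

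The RANKL response differed between the genotypes for 9 of the 14 integrin chains and 14 of the 31 other members, mostly as a weaker fall or a stronger rise in KO cells. The test of the difference called 19 members positive (a larger rise or smaller fall in KO) and 4 negative, against 21.9% of all genes called in either direction, 12.3% positive and 9.53% negative. Past 2-fold were 3 members positive and none negative, against 1.06% of all genes in either direction, 0.798% positive and 0.261% negative. The test against a 1.5-fold threshold called 2 members, against 0.599% of all genes. The median difference of the members was 0.09 on the log2 scale, beside 0.0108 over all genes, and the split with library size alone was 16 positive and 5 negative. The difference uses all 4 groups and is the same number as the difference of the genotype changes in OC and BMM. The absolute RANKL change was smaller in KO for 15 of the 23 members called (65.2%, against 78.6% of all genes called).

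Among the chains 8 differences were positive and 1 was negative. The largest were in Itga8 (difference 1.29, SE 0.27, adjusted p = 0.000207 by edgeR) and Itga9 (1.28, SE 0.21, adjusted p = 3.7e-06 by edgeR). In both genes the genotypes were further apart in BMM than in OC. Itga6 (0.40, edgeR adjusted p = 8.33e-10) fell less in KO cells, and Itga5 (0.40, edgeR adjusted p = 2.24e-06) rose more. Itgal (0.33), Itgb5 (0.24), Itgax (0.17) and Itgam (0.11) were the other positive ones, and the calls for Itgax and Itgam were lost in 3 and 9 of the 12 fits without 1 library. Itgb7 rose less in KO cells (difference -0.38, SE 0.11, adjusted p = 0.00983 by edgeR), a call lost without the third KO BMM library (-0.32, edgeR adjusted p = 0.0766). Itgb3 did not pass (0.83, SE 0.32, adjusted p = 0.0597 by edgeR), but it passed without the second flox BMM (0.97, edgeR adjusted p = 0.0294), second KO BMM (0.95, 0.0489), second flox OC (0.99, 0.0364) or first KO OC library (0.99, 0.0396). Itgav (0.07, edgeR adjusted p = 0.496), Itgb2 (0.00), Itgb1 (0.09) and Itga4 (0.04) did not pass.

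Outside the chains, 11 differences were positive and 3 negative. Bcar1 had the largest (1.88, SE 0.28, adjusted p = 7.58e-07 by edgeR). It was lower in KO than in flox BMM, and the OC groups overlapped. Myo10 (0.42, edgeR adjusted p = 1.74e-06) rose more in KO cells. Ptk2b (0.31, SE 0.04, adjusted p = 9.01e-08 by edgeR), Cbl (0.27), Sh3pxd2b (0.26), Rac2 (0.21), Arpc2 (0.20) and Vav1 (0.14) fell less. Ptk2 (0.23, edgeR adjusted p = 0.00414) rose more, a call lost without the first flox BMM library (0.15, edgeR adjusted p = 0.056). Tln2 fell more in KO cells (-0.75, SE 0.14, adjusted p = 4.67e-05 by edgeR), Actr3 had a difference of -0.18 (edgeR adjusted p = 0.00089), and Pxn fell slightly more in KO (-0.12, edgeR adjusted p = 0.0228). The small differences of Zyx (0.14) and Gsn (0.12) passed as well. The calls for Pxn, Zyx and Gsn were each lost in at least 4 fits without 1 library. With library size alone and with DESeq2, Itgam (adjusted p = 0.115 by edgeR and 0.0917), Zyx (0.137 and 0.125) and Gsn (0.0718 and 0.0573) lost the call too. Tln1 (0.03, edgeR adjusted p = 0.852), Was (-0.04, edgeR adjusted p = 0.578) and Actn4 (-0.09) did not pass. Actn4 passed without the first flox BMM library (-0.13, edgeR adjusted p = 0.0036) and with library size alone (-0.12, edgeR adjusted p = 0.0172).

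**Figure D5:**
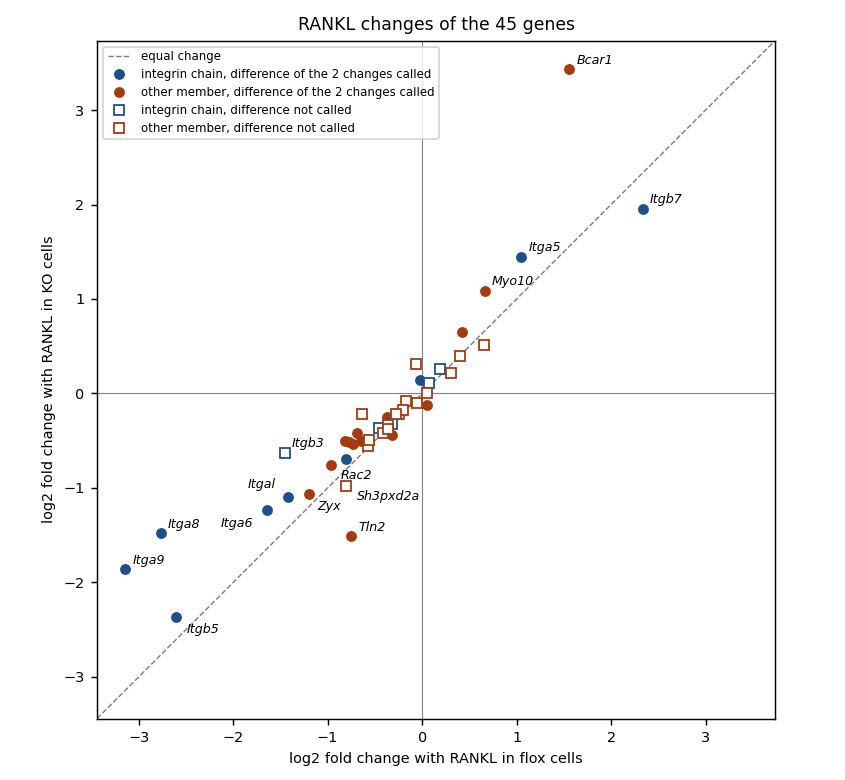
Log2 fold change with RANKL for the 45 genes in flox cells (horizontal axis) and KO cells (vertical axis); filled circles are genes whose 2 changes differed by the test of the difference, open squares are the others, and the dashed line marks equal change. Most genes lie in the lower left, Itga8 and Itga9 fall less in KO cells, and Bcar1 rises by 1.56 in flox and 3.43 in KO cells.

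A list of 99 further genes, chosen for the pathway, of which 86 passed the filter, gave context to the members. It includes Hic1, which encodes a transcriptional repressor and not an adhesion protein. By genotype, 16 were higher and 41 lower in BMM (66.3% called, against 39.9% of all genes), and 25 were higher and 37 lower in OC (72.1% against 41.3%). With RANKL, 20 were higher and 52 lower in flox cells (83.7% against 74.8%), and 16 were higher and 48 lower in KO cells (74.4% against 70.5%), so the shares called with RANKL were near those of all genes. The difference called 22 positive and 9 negative (36.0% against 21.9%). Among the integrin ligands, all 7 tested ligand genes were lower in KO BMM, against 20.6% of all genes. In KO OC 6 were lower, against 19.9% of all genes, and Spp1 (osteopontin) was higher. Vtn, the vitronectin gene, had no count in any library, and Ibsp was at or under 0.296 CPM.

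The named pathway genes with the largest genotype falls were scarce. In BMM they were the collagen receptor chain Itga11 (log2 fold change -1.86), the matrix protein tenascin Tnc (-1.80), the endothelial adhesion ligand Vcam1 (-1.76) and the paxillin relative Tgfb1i1 (-1.76). In OC they were Vcam1 (-2.02), the smooth muscle myosin light chain Myl9 (-1.96), the actin elongation factor Enah (-1.92) and Tgfb1i1 (-1.80). All but Tnc and Myl9 were under 5 CPM in every library. The stromal marker sums given above were also lower in the KO groups, and their part in these falls was not tested.

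With RANKL, Dock5, a Rac exchange factor, rose from 71.2, 69.0 and 63.5 CPM to 358, 379 and 361 CPM in flox cells (log2 fold change 2.43) and by 2.80 in KO cells. Icam1, a ligand of the Itgb2 integrins, rose by 2.18 and 2.15. Rasgrp2, an activator of integrin signalling through Rap, fell by 2.15 in flox cells and by 1.71 in KO cells on the log2 scale. Rhob fell by 1.62 in flox cells and Vav3 by 1.68 in KO cells. The RANKL effect differed most for Spp1 (difference 0.95), which was at 2113, 1948 and 1848 CPM in flox BMM, 1286, 1344 and 1323 CPM in KO BMM, 764, 768 and 797 CPM in flox OC and 1005, 997 and 999 CPM in KO OC. The KO libraries were lower than the flox libraries without RANKL and higher with it. Nid1 (-0.78), Arhgef3 (-0.64) and Coro1a (0.55) followed.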

How the data were processed

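The authors deposited raw counts of reads per gene, 1 table per library, with no normalization. Per the submitters' processing notes, STAR 2.0.4b and GRCm38 were used. Reads were assigned to the genes of Ensembl release 76, ignoring strand, by featureCounts 1.4.5-p1, per the file headers. The labels' extraction protocol lists oligo-dT without more detail. Groups and replicate numbers came from the sample titles.

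Here all 12 libraries were fitted together with 4 group means in edgeR 4.0.16 (R 4.3.3), using TMM factors, its default low-count filter and the robust quasi-likelihood F test, with Benjamini-Hochberg adjustment over 13030 genes in each of 5 comparisons. A gene was called at an adjusted p under 0.05. Each SE was the size of the log2 fold change divided by the root of its F statistic. Identifiers without a symbol (1134, holding 0.136% of the counts) stayed in the fit. Libraries held 18489873 to 21667237 counts. The upper limit for 0 reads covers counting error only, while each SE also includes the spread between libraries. No 2 libraries held the same counts. Between libraries of 1 group, chi-square per degree of freedom (1 for counting error alone) was 1.25 to 2.10 in KO BMM, flox OC and KO OC. In flox BMM it was 2.88 to 5.43. The spread was thus unequal between groups and in places close to counting error. The script was tested on simulated data.

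The 45 members, the gene lists and the tests were chosen with earlier results of these data known. Values per library are given, in each comparison, for up to 6 called members with the largest rise and up to 6 with the largest fall, and Itgb3, Itgav, Ptk2b, Tln1, Was and Itgb2 are always described. Of the pathway list, up to 4 called genes per comparison with the largest change and at least 1 CPM are named. Other names were chosen after their values were seen. The alternatives were another scaling, no filter, DESeq2 1.42.0, only the groups compared, a replicate block, a 1.5-fold threshold and leaving out each library. Promoters come from RefSeq (GRCm38.p6), and matched 32 of the 45 genes.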

Additional observations from a re-analysis of the deposited data

Results flagged for a closer look

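The RANKL effect differed between flox and KO cells for 23 members by the test of the difference itself (edgeR quasi-likelihood test, adjusted p under 0.05), against 21.9% of all genes. As KO minus flox on the log2 scale, the integrin chains were Itga8 (1.29), Itga9 (1.28), Itga6 (0.40), Itga5 (0.40), Itgal (0.33), Itgb5 (0.24), Itgax (0.17), Itgam (0.11) and Itgb7 (-0.38). The adaptors were Bcar1 (1.88), Zyx (0.14), Pxn (-0.12) and Tln2 (-0.75), and the kinases and Cbl were Ptk2b (0.31), Cbl (0.27) and Ptk2 (0.23). The other members were Myo10 (0.42), Sh3pxd2b (0.26), Rac2 (0.21), Arpc2 (0.20), Vav1 (0.14), Gsn (0.12) and Actr3 (-0.18). With 3 libraries per group, no library was checked as an outlier.

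The call was lost when 1 library was left out for 7 of the 23. Without a library, Zyx lost it in 8 of 12 fits (the exceptions were flox OC 1, KO BMM 1, KO OC 1 and flox BMM 3; adjusted p 0.0736 to 0.204) and Itgam in 9 (the exceptions were flox BMM 3, KO BMM 2 and KO OC 2; 0.0595 to 0.146). Gsn lost it in 5, those without flox BMM 1 or 2, KO BMM 1, flox OC 2 or KO OC 1 (0.0512 to 0.106), Pxn in 4, those without KO BMM 1, flox OC 1 or 2 or KO OC 3 (0.0507 to 0.0556), and Itgax in 3, those without flox BMM 2, KO BMM 1 or flox OC 3 (0.0583 to 0.0771). Itgb7 lost it without KO BMM 3 (0.0766) and Ptk2 without flox BMM 1 (0.056), all by the edgeR test.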

How the results depend on the processing

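Counts of called members stayed within 1.5 times of those reported under every alternative but 1. Tested against a 1.5-fold threshold, which asks for a larger change by construction, 2 members were higher and 11 lower by genotype in BMM, 2 and 3 in OC, 4 and 15 with RANKL in flox cells, 4 and 10 in KO cells, and 2 and 0 for the difference. For 85 results of single named members, 1527 of 1599 alternative values kept their direction and call, 53 lost the call, 8 gained it and 11 changed sign. Under library size alone Was turned with RANKL, to 0.113 in flox cells and 0.0387 in KO cells, and the difference for Tln1 turned to -0.0080. The other 8 were differences near 0, none called, with 1 library left out: Itgav ranged from -0.0112 to 0.1123, Tln1 from -0.0203 to 0.069 and Itgb2 from -0.0497 to 0.0231. Library size alone also moved the share of calls that were higher over all genes, from 48.3% to 59.9% by genotype in BMM, from 49.5% to 62.8% with RANKL in flox cells, from 50.4% to 63.5% in KO cells and from 56.4% to 43.3% for the difference, and raised the median of all genes by 0.17 and 0.13 with RANKL. The TMM factors, which library size alone leaves out, were 0.929 to 0.962 in the BMM libraries and 1.051 to 1.058 in the OC libraries. The cause of that difference between the cultures was not tested.

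Same-numbered libraries did not deviate together (correlations between -0.0353 and 0.0397), and the main fit used no pairing. With 3 libraries per group this check cannot exclude a shared animal or culture behind a number. With the replicate block, 9 members were higher and 22 lower in BMM, 16 and 19 in OC, 10 and 30 with RANKL in flox cells, 11 and 31 in KO cells, and 18 and 4 for the difference, where Zyx lost its call. Depth limits the scarce members: Itgb3, on 60 to 218 reads per group, and Bcar1, on 34 to 370, had the largest SE for the difference among the 45 members, 0.32 and 0.28.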

Other observations

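Outside the members and the named pathway genes, a few adhesion genes had large genotype differences and were picked after their values were seen. Parvg, the parvin of blood cells, which links integrin adhesions to actin, was at 21.9, 21.0 and 22.1 CPM in flox BMM, 55.4, 50.6 and 51.5 CPM in KO BMM, 18.8, 18.6 and 20.6 CPM in flox OC and 47.0, 49.2 and 46.6 CPM in KO OC. Its genotype log2 fold changes were 1.28 and 1.30 without overlap. Lsp1, a leukocyte actin-binding protein, rose from 142 ± 3.84 to 296 ± 13.8 CPM in BMM and from 55.4 ± 2.58 to 108 ± 4.30 CPM in OC (SD, n = 3 each). Thbs1, the matrix glycoprotein thrombospondin, was lower in KO by log2 fold changes of -1.51 in BMM and -1.66 in OC.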
